A study of Mus musculus with 12 samples.

Results

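Hippocampal microglia, the macrophages that live in brain tissue, were compared for the genes through which they sense interferon and for genes that interferon switches on. The set was chosen by name: the receptor chains Ifnar1, Ifnar2 and Ifngr1 and the induced genes Ifit2, Ifi35, Ifi204, Ifih1, Bst2, Irgm1 and Gbp5. Of these 10 genes, Gbp5 was not analysed here, which left 9 of the 545 immune genes of the table, 3 receptors and 6 induced genes. The cells came from the hippocampus of control male mice of the Balbc strain at postnatal day 28 (P28, n = 6) and postnatal day 14 (P14, n = 6). The 6 samples of an age came from different litters. The cells were enriched on a Percoll gradient and flow sorted, so each value is an average over the sorted cells of 1 sample. RNA was read on a mouse immune panel of the nCounter system, which tags each target with a fluorescent barcode. The question addressed is how immune genes of these cells differ between the ages, in a study of early life stress whose stressed animals were not analysed here.

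Type I interferons act through a receptor made of the chains Ifnar1 and Ifnar2, and interferon gamma acts through Ifngr1 with its partner Ifngr2. Both receptors signal through JAK kinases to STAT factors, which enter the nucleus and bind promoters. After type I interferon, a complex of STAT factors with IRF9 binds an element called the ISRE, and after interferon gamma STAT dimers bind an element called GAS. The products of the induced genes restrict viruses and other intracellular microbes, and in the brain microglia are among the cells that carry this response.

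To show where the ISRE occurs among these genes, 4 promoters are printed: those of the 3 induced genes with an ISRE core and, as a receptor without one, that of Ifngr1. The windows are RefSeq promoters of build GRCm38.p6, from 250 bases before to 50 bases after the start of the gene, and 8 of the 9 genes matched that table. The ISRE core was searched on both strands as GAAA, any 2 bases and GAAA again, and is in capitals. It was found in 3.44% of 32851 promoters of 300 bases. Irgm1 (chr11:48871371-48871670, minus strand) has 2 overlapping cores between 30 and 15 bases before the start, and Bst2 (chr8:71537423-71537722, minus strand) has 2 overlapping cores between 130 and 115 bases before it. Ifih1 (chr2:62646206-62646505, minus strand) has 1 core at bases 33 to 42 after the start, and the window of Ifngr1 (chr10:19591699-19591998, plus strand) has none.
Irgm1: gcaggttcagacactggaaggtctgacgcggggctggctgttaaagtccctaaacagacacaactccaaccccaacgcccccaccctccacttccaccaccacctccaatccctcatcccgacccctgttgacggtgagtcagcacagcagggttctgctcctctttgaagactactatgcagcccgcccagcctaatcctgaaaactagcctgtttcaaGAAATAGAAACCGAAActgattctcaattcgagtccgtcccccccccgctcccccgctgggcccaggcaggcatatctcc
Bst2: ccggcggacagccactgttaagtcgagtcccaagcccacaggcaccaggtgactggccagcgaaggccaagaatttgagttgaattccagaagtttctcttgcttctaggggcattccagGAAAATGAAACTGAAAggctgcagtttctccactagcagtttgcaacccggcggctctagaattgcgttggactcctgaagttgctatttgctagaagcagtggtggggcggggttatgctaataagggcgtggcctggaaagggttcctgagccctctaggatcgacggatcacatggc
Ifih1: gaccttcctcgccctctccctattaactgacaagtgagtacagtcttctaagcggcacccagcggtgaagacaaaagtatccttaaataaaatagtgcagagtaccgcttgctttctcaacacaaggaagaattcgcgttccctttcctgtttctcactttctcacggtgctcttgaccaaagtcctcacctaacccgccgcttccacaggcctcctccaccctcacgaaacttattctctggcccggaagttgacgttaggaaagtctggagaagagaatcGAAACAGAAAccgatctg
Ifngr1: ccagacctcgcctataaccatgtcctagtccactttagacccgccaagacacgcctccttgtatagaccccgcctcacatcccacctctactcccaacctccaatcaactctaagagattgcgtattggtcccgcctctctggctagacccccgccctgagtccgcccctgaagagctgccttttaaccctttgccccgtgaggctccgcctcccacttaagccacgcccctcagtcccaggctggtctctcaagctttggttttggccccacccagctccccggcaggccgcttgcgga
The ISRE core was not in the windows of Ifnar1, Ifnar2, Ifi35 or Ifit2, the last of which has 2 windows in the table. The GAS core, searched as TTCNNNGAA, which reads the same on both strands, was found in 8.30% of all promoters and in 5 of the 9 windows of these genes: 1 each of Ifnar1, Ifnar2, Ifi35, Bst2 and Ifit2. In Bst2 the GAS core overlaps an ISRE core. A match only describes these letters.

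A gene was called present when its count exceeded the background of its lane, set 2 SD above the average of its 8 negative probes, in at least 40% of the 12 samples. Of the 545 genes, 366 were present, among them 8 of the 9 genes described here. The 545 genes together gave 1025196 to 1534665 raw counts per sample at P28 and 356398 to 1316430 at P14, the lowest totals being those of P14 samples 5 and 4. Levels are scaled counts, that is raw counts divided by the relative level of 6 reference genes, given as mean ± SD of 6 samples. Probes differ in how well they capture their target, so levels are compared between samples and not between genes. The 6 positive-control probes summed to between 36530 and 41574 counts at P28 and between 14924 and 20649 at P14. That difference and the difference in age cannot be told apart. Microglial markers were high at both ages: the summed scaled counts of 9 of 9 such genes, among them Cx3cr1, Csf1r, Trem2 and C1qa, ranged from 267453 to 302340 at P28 and from 237350 to 298615 at P14. An earlier look at the data set P14 samples 4 and 5 apart from the other P14 samples, so results that rest on them are given with and without them.

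Of the 8 present genes, 0 rose and 1, Irgm1, fell at P28 by edgeR's quasi-likelihood test with Benjamini-Hochberg adjustment over all 366 genes. Over the whole panel 30.6% of genes passed that test, 16.7% as higher and 13.9% as lower. The median log2 fold change, P28 over P14, was 0.18 for the 3 receptors, -0.30 for the 5 present induced genes and 0.0026 for all 366 genes. In each of the 8 genes the values of the ages overlapped, while 20.8% of all present genes had no overlap. Without P14 samples 4 and 5, an alternative added with the data known, 3 of the 8 genes passed as lower (Ifngr1, Bst2 and Irgm1) and 0 as higher. Of all genes 43.2% then passed, 24.6% as lower and 18.6% as higher. The direction also turned on the scale. With the authors' factors 2 of the 8, Ifnar2 and Ifi35, passed as higher and 0 as lower, against 25.4% and 9.84% of all genes (35.2% in all). With total counts 3 of the 8 passed as lower and 0 as higher, against 26.2% and 13.9% of all genes (40.2% in all). With positive controls alone 4 of the 8 passed as lower and 0 as higher, against 35.0% and 2.19% of all genes (37.2% in all).

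**Figure D1:**
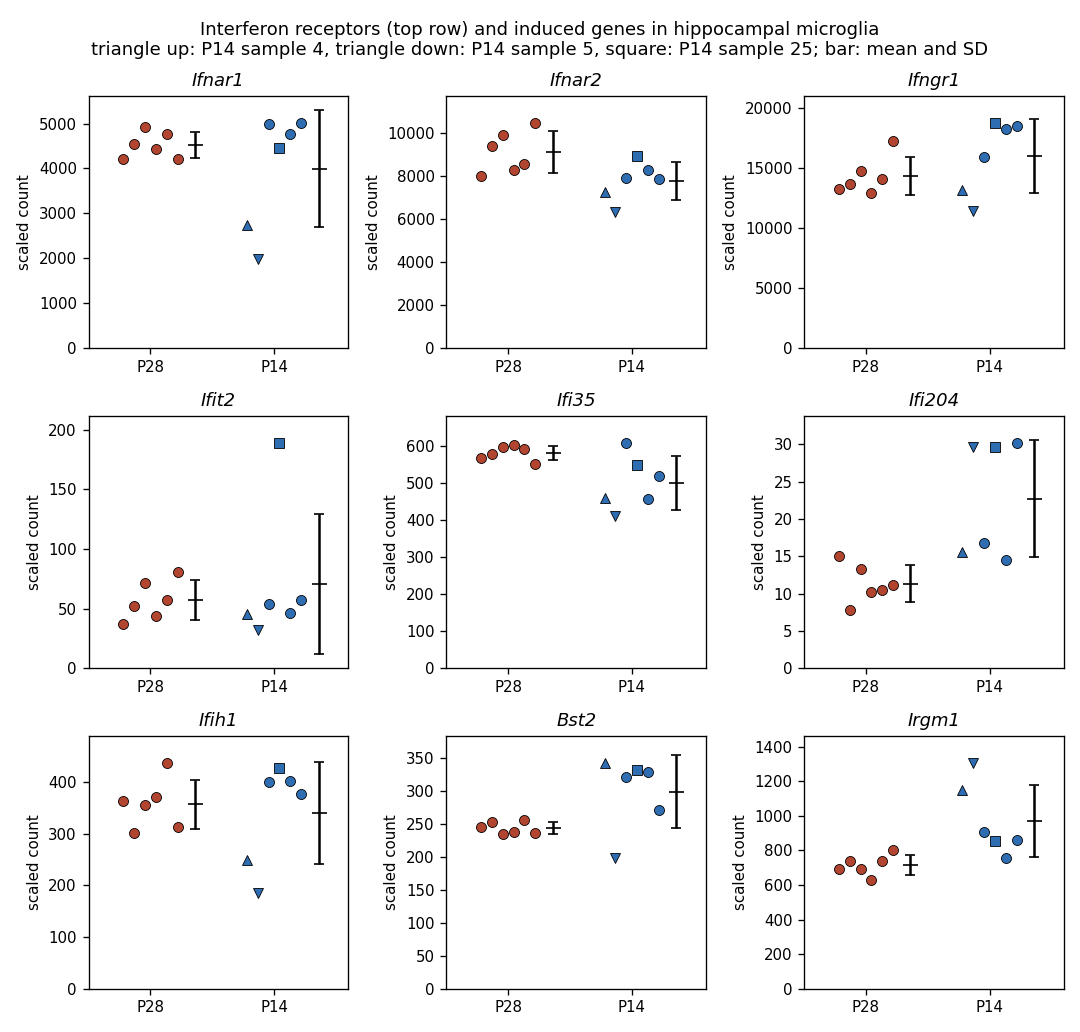
Scaled count of each of the 9 genes in every sample, P28 in red and P14 in blue, with the mean and SD of the 6 samples of an age beside the points; each vertical axis starts at 0. P14 samples 4 and 5 (triangles) are the lowest P14 samples for the 3 receptors and Ifih1 and the highest for Irgm1, and P14 sample 25 (square) stands far above the others for Ifit2.

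Ifnar1, the chain of the type I receptor that binds interferon with lower affinity, ranged from 4210 to 4928 scaled counts at P28, with a median of 4482, and from 1981 to 5019 at P14, with a median of 4612. The P28 samples lay close together, and at P14 samples 5 and 4 (1981 and 2739) lay far under the other 4, which were at 4458 or more. The mean was 4515 ± 292 at P28 and 3992 ± 1302 at P14, and the log2 fold change of 0.18 ± 0.20 (SE) did not pass (adjusted p = 0.559 by edgeR). It was -0.09 without P14 samples 4 and 5. In sorted cells taken as a whole, fewer cells that carry a transcript and less transcript per cell cannot be told apart.

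Ifnar2, the chain that binds type I interferon tightly, ranged from 7970 to 10465 at P28 (median 8981) and from 6319 to 8925 at P14 (median 7882). Of the 3 receptors it had the largest log2 fold change, 0.23 ± 0.11, from means of 9094 ± 980 at P28 and 7759 ± 895 at P14, and it did not pass (adjusted p = 0.113 by edgeR). The authors' deposited table gives a fold of 1.28 with an unadjusted p-value of 0.0049 for Ifnar2. With the authors' scaling factors the same edgeR test gave 0.36 ± 0.11 (adjusted p = 0.0181), and it also passed with all 14 reference genes (0.30, adjusted p = 0.0257) and in limma on the authors' values (0.35, adjusted p = 0.0265). With positive controls alone the value was -0.54.

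Ifngr1, the ligand-binding chain of the interferon gamma receptor, ranged from 12928 to 17216 at P28 (median 13887) and from 11434 to 18768 at P14 (median 17087). P28 sample 138 lay above the other P28 samples, which reached 14773, and 4 of the 6 P14 samples lay between 15915 and 18768. The means were 14320 ± 1563 at P28 and 15998 ± 3093 at P14 (log2 fold change -0.16 ± 0.13, adjusted p = 0.406 by edgeR). Without P14 samples 4 and 5 the log2 fold change was -0.32 ± 0.09 (adjusted p = 0.0148), and scaling to total counts gave -0.31 (adjusted p = 0.0166).

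Counts of different genes in the same sample can be set against each other without any choice of scale, since a scale factor cancels in their ratio. The ratio of Ifngr1 to Ifnar2 raw counts was 1.58 ± 0.09 at P28, with values from 1.45 to 1.66, and 2.05 ± 0.22 at P14, with values from 1.81 to 2.35. All 6 P28 samples lay below all 6 P14 samples, and P14 samples 4 and 5 were the P14 samples nearest to the P28 range. Of the 365 other present genes, 12.3% were likewise lower at P28 without overlap when divided by Ifnar2, and 18.9% had no overlap in either direction. The ratio of Ifnar1 to Ifnar2, the chains of one receptor, was 0.50 ± 0.05 at P28 and 0.51 ± 0.14 at P14, with overlapping ranges. It was 0.38 and 0.31 in P14 samples 4 and 5 and between 0.50 and 0.64 in the other P14 samples. The ratio of Ifngr1 to Ifnar1 overlapped as well (3.18 ± 0.45 at P28 and 4.25 ± 0.92 at P14). These ratios were chosen after values were seen and are a description.

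**Figure D2:**
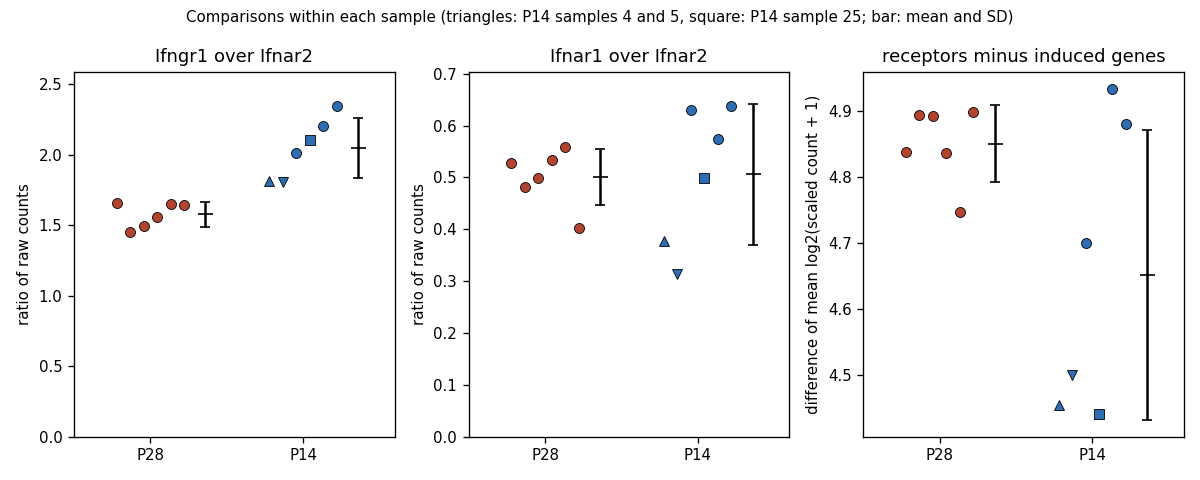
Comparisons within each sample, P28 in red and P14 in blue, with mean and SD of 6 samples beside the points: the raw count ratio of Ifngr1 to Ifnar2, that of Ifnar1 to Ifnar2, and the mean log2(scaled count + 1) of the 3 receptors minus that of the 5 present induced genes. The first ratio shows no overlap (1.45 to 1.66 at P28, 1.81 to 2.35 at P14); the other panels overlap, and the vertical axis of the last does not start at 0.

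Irgm1, an interferon-induced GTPase that acts on vacuoles holding microbes and on autophagy, ranged from 630 to 801 scaled counts at P28 (median 714) and from 759 to 1306 at P14 (median 884). The groups overlapped only in that P28 sample 138 (801) lay above P14 sample 61 (759). It fell to a mean of 715 ± 57.8 at P28, against 973 ± 209 at P14 (log2 fold change -0.44 ± 0.14, adjusted p = 0.0206 by edgeR). The highest P14 values were those of samples 5 (1306) and 4 (1148), the samples in which the receptors were lowest, and the other 4 lay between 759 and 907. Without those samples the log2 fold change was -0.24 ± 0.09 (adjusted p = 0.0449). The call was lost with the authors' factors (-0.33, adjusted p = 0.108), with all 14 reference genes (-0.40, adjusted p = 0.0788) and in limma on the authors' values (-0.30, adjusted p = 0.150), and the value was negative in all 25 alternatives run.

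Bst2, or tetherin, which holds budding virus at the cell surface, ranged from 235 to 255 at P28 (median 241) and from 198 to 342 at P14 (median 325). In 5 of the 6 P14 samples it exceeded every P28 sample, and P14 sample 5 (198) lay below all of them. The log2 fold change of -0.30 ± 0.13 did not pass (adjusted p = 0.102 by edgeR). Without P14 sample 5 alone it was -0.39 (adjusted p = 0.00926), and without P14 samples 4 and 5 it was -0.36 (adjusted p = 0.00927). With DESeq2 on the same reference genes it was -0.31 (adjusted p = 0.0259), and in the alternatives run the value lay between -1.05 and -0.15.

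Ifi35, an interferon-induced protein with a leucine zipper, ranged from 550 to 601 at P28 (median 584) and from 411 to 607 at P14 (median 487). The P28 samples were again tight, and 1 P14 sample, number 16, lay above all of them. The log2 fold change of 0.21 ± 0.11 did not pass (adjusted p = 0.141 by edgeR). The authors' deposited table gives a fold of 1.27 and an unadjusted p-value of 0.0004, and edgeR with the authors' factors gave 0.34 ± 0.10 (adjusted p = 0.0165), while positive controls alone gave -0.54.

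Ifih1, which encodes the sensor MDA5 of viral double-stranded RNA, had 356 ± 48.3 scaled counts at P28 and 340 ± 98.6 at P14 (log2 fold change 0.06 ± 0.19, adjusted p = 0.848 by edgeR). Its P14 values were 249 and 185 in samples 4 and 5 and between 376 and 427 in the other 4, against 301 to 436 at P28. Without samples 4 and 5 the log2 fold change was -0.17 ± 0.11. Ifi204, a member of the interferon-inducible p200 family of DNA-binding proteins, stayed near background. It was above its lane's background in 0 of 6 samples at P28 and in 2 of 6 at P14, samples 25 and 81, with raw counts of 7 to 35 over all samples. No fold is given, since its mean at P14 lay below the background of the P28 samples.

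**Figure D3:**
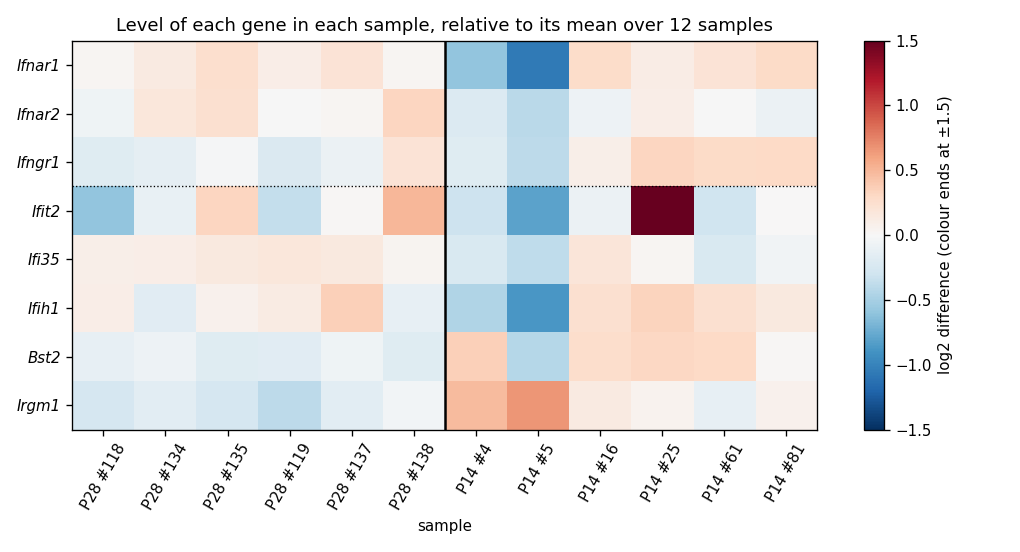
Difference of each present gene from its own mean over the 12 samples, in log2(scaled count + 1), with P28 samples to the left of the vertical line, P14 samples to the right, receptors above the dotted line and induced genes below it. The colours of P14 samples 4 and 5 are blue for the receptors and Ifih1 and red for Irgm1, and Ifit2 in P14 sample 25 passes the end of the scale.

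Ifit2, an interferon-induced protein that binds RNA and slows its translation, had 189 scaled counts in P14 sample 25, from 210 raw counts against a lane background of 15.5. The other 5 P14 samples held between 32.2 and 57.0, and the P28 samples between 37.3 and 81.0 (median 55.0). With all samples the log2 fold change was -0.34 ± 0.37 (adjusted p = 0.556 by edgeR). Without P14 sample 25 it was 0.25, and in limma on the authors' values, with that sample kept, it was 0.05.

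The other genes for which P14 sample 25 stood out were sought across the panel, after these values were seen. In 4 of the 366 present genes sample 25 was more than 2-fold above every other P14 sample, and each of the 4 was Ifit2 or a gene of the interferon lists used here: Cxcl10, Ifit2, Mx1 and Irf7. The same count was 1 for P14 sample 5 and 0 for each of the remaining 4 samples. The genes described here and those of the lists made up 46 of the 366 present genes. By any margin, sample 25 was the highest P14 sample in 13 of those 46 genes and in 44 of all 366. Cxcl10, a chemokine that draws T cells, had 441 scaled counts in sample 25, against 34.6 to 76.2 in the other P14 samples. Mx1, a GTPase that blocks influenza virus, had 365 in sample 25 and 89.0 to 145 in the others. Irf7, the transcription factor that amplifies type I interferon production, had 353 in sample 25 and 65.3 to 142 in the others.

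The receptors moved less in that sample: Ifnar1, Ifnar2 and Ifngr1 were 0.94, 1.14 and 1.18 times the median of the other P14 samples. Ifnar2, Ifngr1 and Ifih1 were highest at P14 in sample 25, by 1.08, 1.02 and 1.06 times the next sample. Bst2 was 1.04 times, Irgm1 0.94 times and Ifih1 1.14 times the median of the others, while Ddx58, which encodes the RNA sensor RIG-I, was 1.40 times that median. At P28 each of Cxcl10, Ifit2, Mx1 and Irf7 was highest in sample 138. There Cxcl10 had 119 scaled counts against at most 37.2 in the other P28 samples, Irf7 had 131 against at most 89.0, Ifit2 had 81.0 against at most 71.5 and Mx1 had 123 against at most 113. Sample 138 was also the highest P28 sample for Ifnar2, Ifngr1, Irgm1, Tlr3, Tlr9 and Jak2, among others. Jak2 had 9567 there, against at most 4045 in the other P28 samples. That rank was thus not particular to Cxcl10, Ifit2, Mx1 and Irf7. Marker sums of other cells in P14 sample 25 were the lowest of P14 for monocytes and border macrophages (300.4) and the highest of P14 for dendritic cells (1634, where the lowest P14 sum was 932) and for astrocytes, oligodendrocytes and neurons (6967, where the lowest was 4261). The dendritic sum was carried mainly by Cd83 (966 at P14 on average) and the last sum mainly by App (5335 at P14 on average). The T cell sum was 343 in sample 25 and also in P14 sample 4, the low end of P14 (343 to 388). The part of other cells in these values was not tested.

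**Figure D4:**
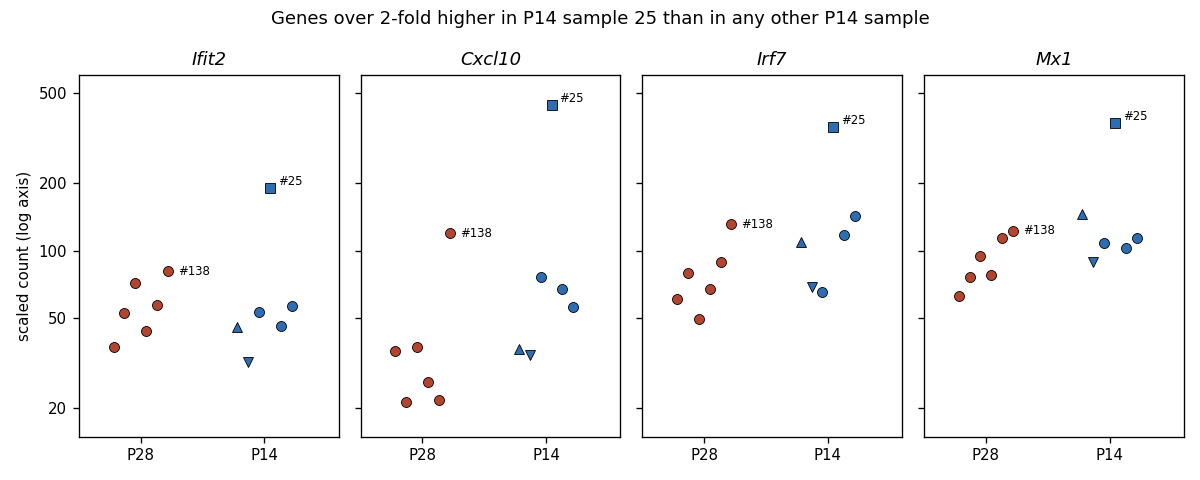
Scaled counts on a log axis of the 4 genes that were more than 2-fold higher in P14 sample 25 (square) than in any other P14 sample, P28 in red to the left and P14 in blue to the right. Sample 25 holds 189 for Ifit2, 441 for Cxcl10, 353 for Irf7 and 365 for Mx1, and P28 sample 138 is the highest P28 sample in each panel.

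Receptors and induced genes were then compared directly. Per sample, the mean log2(scaled count + 1) of the 3 receptors minus that of the 5 present induced genes was 4.85 ± 0.06 at P28, with values from 4.75 to 4.90, and 4.65 ± 0.22 at P14, with values from 4.44 to 4.93. The receptors thus stood 0.20 higher against the induced genes at P28, less than 1 SD of the P14 samples, and the P28 range lay within that of P14. Without P14 samples 4 and 5 the difference was 0.11. Of the 15 ratios of a present induced gene to a receptor, 2 had no overlap between the ages, Bst2 and Irgm1 each divided by Ifnar2. Both were lower at P28: Bst2 over Ifnar2 was 0.0271 ± 0.0033 at P28 and 0.0384 ± 0.0054 at P14, and Irgm1 over Ifnar2 was 0.0790 ± 0.0065 at P28 and 0.129 ± 0.045 at P14. Beside the 12.3% of all genes that were lower without overlap when divided by Ifnar2, the corresponding shares were 12.6% for Ifnar1 and 5.21% for Ifngr1. The count of 2 in 15 covers either direction, for which the shares of all genes were 17.5% for Ifnar1, 18.9% for Ifnar2 and 17.8% for Ifngr1.

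When edgeR was run with the geometric mean of the 3 receptors as the scale in place of the reference genes, 1 of the 5 present induced genes, Bst2, was called, as lower at P28 (log2 fold change -0.40 ± 0.14, adjusted p = 0.0458), while 29.8% of all genes were called, 16.1% lower and 13.7% higher. That call was lost in 13 of 17 alternatives, among them leaving out P14 samples 4 and 5 (-0.27, adjusted p = 0.0858), where 0 of the 5 were called against 36.6% of all genes (13.9% lower and 22.7% higher). Irgm1 was at -0.65 ± 0.24 on that scale (adjusted p = 0.0528), and at -0.15 without P14 samples 4 and 5 (adjusted p = 0.206). Ifit2 (-0.38 ± 0.32), Ifi35 (0.11 ± 0.12) and Ifih1 (0.0090 ± 0.14) did not pass either.

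The coefficient of variation (SD over mean) was smaller at P28 than at P14 for each of the 8 present genes when all samples were kept, but for only 3 of them, Ifit2, Ifi35 and Bst2, without P14 samples 4 and 5. For Ifnar1, Ifnar2 and Ifngr1 it was 6.46%, 10.8% and 10.9% at P28, against 32.6%, 11.5% and 19.3% at P14. Without samples 4 and 5 the P14 coefficients of the same genes were 5.39%, 5.98% and 7.33%, below those at P28, and so were those of Ifih1 (13.6% at P28, against 5.20% at P14) and Irgm1 (8.09% at P28, against 7.33% at P14). Over the panel the median coefficient was 15.6% at P28, against 23.1% at P14 with all samples and 13.2% at P14 without samples 4 and 5. Without those samples the coefficient was smaller at P28 for 155 of all 366 genes. With all samples that number was not counted. Bst2 had 3.65% at P28, against 18.5% at P14 and 9.08% at P14 without those samples, and Ifi35 had 3.35% at P28, against 14.4% and 11.8% at P14.

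**Figure D5:**
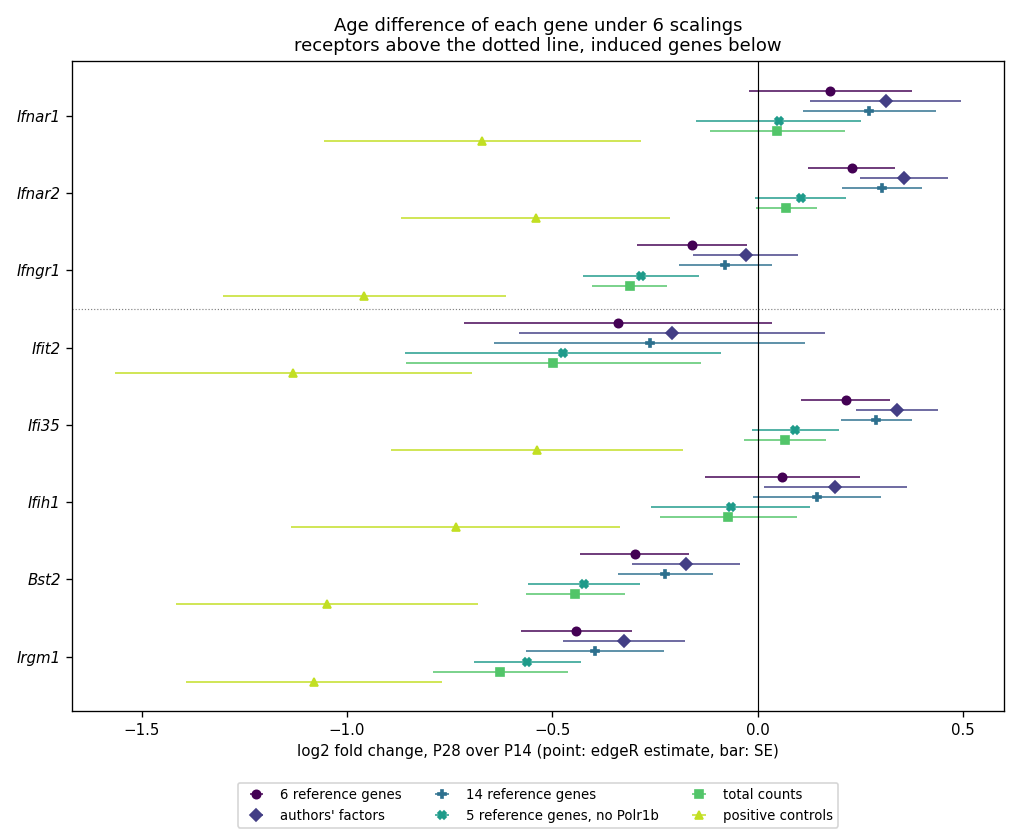
Log2 fold change, P28 over P14, of each present gene with its SE from edgeR under 6 ways of scaling the counts, receptors above the dotted line and induced genes below. With positive controls alone all 8 values lie below 0 (-0.54 to -1.13), and the median of all 366 genes lies at -0.74; on the other scales shown Bst2, Irgm1, Ifit2 and Ifngr1 stay below 0 and Ifnar1, Ifnar2 and Ifi35 above it.

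Around these genes the rest of the interferon pathway was read from lists, which were written with earlier results of these data known. Of 38 further present genes in 5 lists, 4 of them in 2 lists, 9 rose, 2 fell and 27 did not pass, beside 16.7% and 13.9% of all genes. Among the 9, Cxcl9 and Cybb were present through their P28 samples and were at or near background at P14. The ligands were at or near background. Ifnb1 was above background in 0 of 12 samples, Ifng and Ifna1 each in 0 of 6 at P28 and 2 of 6 at P14, and Ifna2, the only present ligand, had 29.0 ± 5.35 scaled counts at P28 and 26.0 ± 6.15 at P14 (0.18 ± 0.17, adjusted p = 0.485 by edgeR).

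Of 10 present genes that carry or limit the signal, 2 rose and 0 fell. Socs3, a feedback inhibitor of JAK kinases, rose by 1.19 ± 0.26 and Ptpn6, a phosphatase that damps receptor signalling, by 0.45 ± 0.10. With positive controls alone they were at 0.34 and -0.26, and neither passed. The partner chain Ifngr2 had 3636 ± 390 scaled counts at P28 and 3070 ± 802 at P14 and did not pass (0.24 ± 0.16), nor did Jak1 (0.12 ± 0.16), Tyk2 (-0.0005 ± 0.12) or Stat2 (-0.10 ± 0.17). Jak2 did not pass either (-0.14 ± 0.24). Its P28 values were 3398 to 4045 apart from 9567 in sample 138, and its P14 values 4401 to 6751. Of 6 interferon regulatory factors 0 passed. The smallest adjusted p-values were those of Irf4 (0.67 ± 0.27, adjusted p = 0.0789 by edgeR) and Irf5 (0.40 ± 0.17, adjusted p = 0.0865), while Irf3 and Irf7 passed as lower once P14 samples 4 and 5 were left out (-0.39 and -1.09). Irf7 then rested on 4 P14 samples, with 353 scaled counts in sample 25 and 65.3 to 142 in the others. Of 7 present genes of nucleic acid sensing, Tlr3 (0.65 ± 0.13, and -0.15 with positive controls alone) and Tlr9 (0.28 ± 0.10, and -0.45 on that scale) rose. Tlr9 was called on 3 of 8 scalings. In size, the largest log2 fold change of this list was that of Ikbke, which did not pass (-0.98 ± 0.36, adjusted p = 0.0524 by edgeR). Ikbke passed as lower without P14 samples 4 and 5 (-1.31, adjusted p = 0.00504) and on 5 of 8 scalings. It had 291 scaled counts in P14 sample 16, against 51.9 to 160 in the other P14 samples and 46.1 to 89.0 at P28.

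Of 18 other present interferon-stimulated genes, 5 rose, 2 fell and 11 did not pass, with a median log2 fold change of -0.10. Cd274, the checkpoint ligand PD-L1, rose to 105 ± 19.0 scaled counts at P28, against 47.8 ± 13.4 at P14 (1.11 ± 0.18, adjusted p = 0.0003 by edgeR), and was at 0.39 with positive controls alone, where it did not pass. Cxcl9, a chemokine that responds to interferon gamma, was above background in 6 of 6 samples at P28 and 2 of 6 at P14, and Cybb, the catalytic chain of the phagocyte oxidase, in 6 of 6 at P28 and 0 of 6 at P14. Both met the presence rule through their P28 samples alone. Their calls as higher, counted among the 5, therefore compare P28 counts with P14 counts at or near background, and no fold is given. The immunoproteasome subunits Psmb10 and Psmb9 also rose, by 0.65 ± 0.09 and 0.50 ± 0.11, with -0.088 and -0.21 with positive controls alone. Tnfsf10, the death ligand TRAIL, fell to 104 ± 16.7 at P28, against 170 ± 12.8 at P14 (-0.70 ± 0.13), and was lower on all 8 scalings. B2m, which pairs with the heavy chains of MHC class I, also fell (-0.26 ± 0.08) and was called on 6 of 8 scalings. Without P14 samples 4 and 5, 5 of the 18 genes were higher and 7 lower, against 18.6% and 24.6% of all genes. These 7 included Cxcl10, Mx1 and Irf7, with 441, 365 and 353 scaled counts in P14 sample 25. The other P14 samples had at most 76.2, 145 and 142.

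Markers of other cells were read beside these results. Bst2 also marks plasmacytoid dendritic cells in the mouse, and the summed scaled counts of the 3 markers of those cells in the table, Ccr9, Tcf4 and Tlr9, ran from 11213 to 13920 at P28 and from 9062 to 11107 at P14. That sum was carried mainly by Tlr9, which rose (0.28 in log2). Tcf4 was at 0.17 and Ccr9 at -0.51, and neither passed. For Irgm1, whose highest values lay in P14 samples 5 and 4, the neutrophil markers summed to 8706 and 6721 in those samples, and 8706 was the highest sum of all 12 samples. The sums ranged from 4190 to 8272 at P28 and from 2875 to 8706 at P14. Of 6 neutrophil markers 3 were present, S100a8, S100a9 and Camp were not, and nearly all of the sum came from Csf3r (5186 at P28 and 4626 at P14 on average). Cxcr2 was above background in 0 of 6 samples at P28 and in 6 of 6 at P14. Of 11 genes listed for T cells 5 were present, with 1 higher and 1 lower, and Cd3d, Cd3e, Cd4 and Cd8a were not present. Sums over all 11, those not present included, were 290.1 to 389 at P28 and 343 to 388 at P14. Cd3eap made up 93.2 of the sum at both ages on average. As for the plasmacytoid markers, sums did not overlap between the ages for dendritic cells (4 of 5 markers present, 1879 to 2389 at P28 and 932 to 1634 at P14) and for endothelial and mural cells (4 of 5 present, 6201 to 14641 at P28 and 3093 to 4867 at P14). The dendritic sum was carried mainly by Cd83 (1536 at P28 and 966 at P14 on average). The endothelial and mural sum was carried mainly by Cd34 (6972 at P28 and 1198 at P14 on average). Of its 4 present markers 2 rose and 1, Cdh5, fell (-0.63), while Pecam1 was at -0.43 and did not pass. The part of other cells in the results was not tested.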

How the data were processed

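Per the labels, RNA of sorted hippocampal microglia (2 ng a sample) was made into cDNA, amplified by 5 rounds of PCR and counted on the nCounter mouse immune panel. The raw table holds deposited whole counts of barcodes per probe; no source used here names the counting software. A second table holds the authors' scaled values, used here as a score, which were constant multiples of the raw counts within rounding, and per the file headers the authors' fold (a ratio of P28 to P14) and a p-value. Copies made by PCR are not separate molecules, so the true error exceeds the counting error.

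The age in each title gave the group; sample numbers are not shared between the ages. Columns that matched no sample numbered 0. The quasi-likelihood test of edgeR 4.0.16 in R 4.3.3 (glmQLFit, then glmQLFTest) was run on raw counts of present genes, with the geometric mean of Alas1, Gapdh, Oaz1, Polr1b, Sdha and Tbp as offset and Benjamini-Hochberg adjustment over 366 genes at an FDR of 0.05; a second fit used the 3 receptors as offset. Levels were put on a log2 scale with a pseudocount of 1 for comparisons within a sample; log2 values are not those of the authors. Alternatives were DESeq2 1.42.0, limma 3.58.1 on the authors' values, other scalings, presence rules and background subtraction, and each sample left out, with the set of present genes kept. The fits were tested on simulated data. There edgeR called 68 of 100 genes changed 1.5-fold, 97 of 100 changed 2-fold and 1 of 166 unchanged genes. Smaller folds, such as those of the present members, were not simulated, so a gene that did not pass may still differ. The members, lists and tests were chosen with earlier results of these data known. Named genes are the 9 members, each gene of an interferon list past the threshold and, where none passed, the 2 with the smallest adjusted p. Others were chosen after their values were seen, among them Ifngr2, Jak1, Jak2, Tyk2, Stat2, Cxcl10, Mx1, Irf3, Irf7, Ddx58, Ikbke, Cxcr2, Cd34, Cdh5, Pecam1 and the absent ligands. The design foresaw 7 induced genes, of which 6 were analysed.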

Additional observations from a re-analysis of the deposited data

Results flagged for a closer look

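Ifit2 in P14 sample 25 had 189 scaled counts, against 32.2 to 57.0 in the other 5 P14 samples. The gap to the nearest P14 sample was 0.842 of the range of the 6 samples, larger than Dixon's 95% limit for a group of 6. Highest and lowest values were tested in this way in 18 groups, 9 genes at each age, and chance alone flags about 1 in 20 groups. Cxcl10, Mx1 and Irf7 were also highest at P14 in that sample, as described above.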

How the results depend on the processing

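The number of the 8 present genes called was 1 (Irgm1, lower) and moved with the scale: 2 higher and 0 lower with the authors' factors, with 14 reference genes or with limma (authors' values), against 0 higher and 2 lower with DESeq2 on either set of size factors, TMM or without Polr1b, 3 lower with total counts or without P14 samples 4 and 5, and 4 lower with positive controls alone. Without a presence filter, 2 of 9 genes were lower, Irgm1 and Ifi204, but Ifi204 was above background in 0 of 6 samples at P28, so its call compares background and is not counted as a change. Leaving out 1 sample gave 1 or 2 (2 without P14 sample 5). All genes called numbered 112 (61 higher, 51 lower) and 102 to 158 in the alternatives; the split was 93 to 36 with the authors' factors, 89 to 42 with all 14 reference genes, 89 to 26 with limma on the authors' values, 50 to 74 without Polr1b, 51 to 96 with total counts, 68 to 90 without P14 samples 4 and 5 and 8 to 128 with positive controls alone. The median over all genes, 0.0026 in log2, was shifted by scaling to 0.13 with the authors' factors, 0.18 with limma on the authors' values, -0.12 without Polr1b, -0.14 with total counts and -0.74 with positive controls alone. Of the pathway genes, 11 were called, against 17 with DESeq2's own size factors (12 higher, 5 lower), 18 without P14 samples 4 and 5 (9 higher, 9 lower) and 9 to 13 when 1 sample was left out. Induced genes called relative to the receptors numbered 1, against 2 with DESeq2 or with Ifnar1 and Ifnar2 alone as the scale, 0 without P14 samples 4 and 5, and 0 to 2 when 1 sample was left out; it was 0 without P14 sample 4, 5 or 16 or any 1 P28 sample and 2 without P14 sample 81.

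Values that passed in neither setting but changed sign were, with positive controls alone, Ifnar1 (-0.67), Ifnar2 (-0.54), Ifi35 (-0.54) and Ifih1 (-0.74). Without P14 samples 4 and 5 they were Ifnar1 (-0.0905) and Ifih1 (-0.17), without Polr1b Ifih1 (-0.0657), with total counts Ifih1 (-0.0713) and with limma on the authors' values Ifit2 (0.0497). When 1 sample was left out Ifih1 ranged from -0.0594 to 0.13 and Ifit2 from -0.46 to 0.25. Relative to the receptors, Ifi35 (-0.0224) and Ifih1 (-0.12) changed sign with Ifnar1 and Ifnar2 alone and Ifih1 (-0.0720) without P14 samples 4 and 5, while Ifih1 ranged from -0.0562 to 0.0665 and Ifit2 from -0.51 to 0.13 when 1 sample was left out. The cause of these changes was not tested. Receptors minus induced genes shifted by 0.20 and by 0.11 to 0.26 in its alternatives. No paired analysis was possible because the ages share no sample numbers. Depth limits Ifit2 most among the present genes, with 13 raw counts in P14 sample 5, the sample with the lowest total.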
